A study of Saccharomyces cerevisiae with 12 samples.

Results

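Genes for the enzymes that acetylate, deacetylate, methylate and ubiquitylate histones were followed in *S. cerevisiae* strains that lack topoisomerase I, topoisomerase II or both. The 53 genes were taken by name as subunits of SAGA (14 genes), NuA4 (8), the Rpd3 (12), Hda1 (3) and Hos (3) deacetylases and COMPASS (6), with *SET2*, *DOT1* and *BRE1* and with 4 further acetyltransferases (*SAS2*, *SAS3*, *RTT109* and *HAT1*). The list does not hold every subunit of SAGA, NuA4 and COMPASS. All 53 were found, each on 1 probe set, among 5449 yeast genes measured. The strains were *top1Δtop2ts*, which carries the deletion of *TOP1* together with a temperature-sensitive allele of *TOP2*, the single mutants *top1Δ* and *top2ts*, and the isogenic wild-type, all in the haploid background W303. Every culture, wild-type included, was held in G1 with α-factor for 90 min at 25°C and then moved to 37°C for a further 90 min with α-factor still present, which switches off the Top2p of the temperature-sensitive strains. Polyadenylated RNA was measured on 3 arrays per strain, 12 in all, and the question was how far transcript levels depend on the 2 enzymes, alone and together. Which clones of each strain were used is not stated in the sources read here, and the labels call the replicates biological.

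Histone acetyltransferases add acetyl groups to lysines of the histone tails, which loosens contacts with DNA and offers docking sites to bromodomain proteins, and deacetylases take the groups off again. In yeast, SAGA is built around the acetyltransferase Gcn5p and is brought to promoters by activators, and NuA4 is built around Esa1p, the acetyltransferase that cells cannot live without. Rpd3p sits in a large complex that represses promoters and in a small one that deacetylates gene bodies, and the small complex is held there through the mark of the methyltransferase Set2p. COMPASS carries the methyltransferase Set1p and marks the beginnings of active genes, a step that depends on ubiquitin placed on histone H2B by Bre1p.

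The values are MAS5 signals, a linear intensity per probe set in arbitrary units, and changes are differences of mean log2 signal between a mutant and wild-type. The sources do not state whether these deposited signals precede or follow the study's normalization to its spike-ins, so the zero of a change on the deposited scale is not settled. They were tested with limma in 1 fit of the 12 arrays, and a gene was called where the p-value adjusted over all 5449 genes was under 0.05. In that fit the standard error of a change was 0.39 for every gene (95% interval ± 0.77), so calls follow the size of the change. Signals of the 53 genes ran from 94.4 to 4475 and all lay above 18.4, the 95th percentile of the control probe sets named Tag. The deleted *TOP1* was read at 9.5, 0.2 and 0.8 in *top1Δtop2ts* and at 0.933 ± 0.231 in *top1Δ*, below the Tag level in each array, against 1065 ± 260 in *top2ts* and 1041 ± 269 in wild-type (SD, n = 3 arrays each, as in all values written so). The 4 arrays of replicate 2 had a spike-in level of 9.88 to 10.01 on the log2 scale, against 10.85 to 11.08 in the other 8, and these 4 arrays read low in general. Same-numbered arrays were taken as 1 experimental set. A second fit took this set as a block, and its values are given where they change a call, although same-numbered *top1Δtop2ts* and wild-type arrays did not deviate together gene by gene (r = 0.02, -0.01 and -0.03 across genes, with the strain means removed, a measure that leaves out the level shared by all genes of an array).

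In *top1Δtop2ts*, 5 of the 53 genes fell and 0 rose, which is 9.43% of them, against 15.1% of all genes that fell and 1.25% that rose. The genes that fell were *SDC1* and *SWD1*, which encode subunits of COMPASS, *BRE1*, the ligase for histone H2B, *EAF3*, a chromodomain subunit shared by NuA4 and the small Rpd3 complex, and *RCO1*, the subunit that sets the small Rpd3 complex apart. The median change of the 53 genes was -0.53, against -0.54 for all genes, and 49 of them (92.5%) had a change below 0, against 85.7% of all genes. The changes ran from -1.91 for *SDC1* to 0.28 for *HOS2*, which encodes a deacetylase. At an unadjusted p under 0.05, 15 genes were lower in *top1Δtop2ts*, or 28.3%, against 32.1% of all genes. The summed signal of the 53 genes was 43836, 25933 and 39071 in the *top1Δtop2ts* arrays of replicates 1, 2 and 3, against 70041, 35512 and 60619 in the wild-type arrays, or 62.6%, 73.0% and 64.5% of the wild-type array of the same number. Each *top1Δtop2ts* array thus lay below the wild-type array of its own number. Pooled over replicates the groups overlapped, since the wild-type array of replicate 2, which read low in general, lay below 2 *top1Δtop2ts* arrays. Overlap stated below for single genes is likewise pooled, so it includes the difference in level between replicates. In bulk RNA less of a transcript per cell and fewer cells that carry it cannot be told apart.

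In the fit without the block, the calls near the threshold changed when single arrays were left out. Leaving out an array of replicate 2, which read low in general, also moved the mean level of its strain in that fit. When 1 array was left out of the fit, the number of the 53 genes that fell lay between 1 and 23. It was 7, 1 and 3 with *top1Δtop2ts* arrays 1, 2 and 3 left out in turn, 2, 5 and 2 with the *top1Δ* arrays, 8, 11 and 2 with the *top2ts* arrays and 1, 23 and 1 with the wild-type arrays. *SDC1* was called each time. *SWD1* was lost in 3 cases, with an adjusted p of 0.0635 when the second *top1Δtop2ts* array was missing and of 0.0868 and 0.0987 when the first or the third wild-type array was. *EAF3* and *BRE1* were each lost in 7 of the 12 cases and *RCO1* in 6, with adjusted p up to 0.222, 0.211 and 0.356, while their changes were -0.68 or lower in all 12. The median change of the 53 genes itself ran from -0.83 to -0.33 in these fits. In the block fit of all 12 arrays the adjusted p was 3.97e-05 for *SWD1*, 1.15e-05 for *EAF3*, 9.27e-05 for *BRE1* and 0.000373 for *RCO1*.

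The number of calls depended on how the general level of the arrays was treated. In the block fit 33 of the 53 genes fell (62.3%, against 62.7% of all genes) and 0 rose (4.99%). When each array was scaled to its poly-A spike-ins 32 fell (60.4%, against 62.6%) and 0 rose (2.50%), and with scaling and block together 41 fell (77.4%, against 72.7%) and 0 rose (3.34%). When the arrays were given equal medians, which removes a common shift by construction, 7 fell (13.2%, against 22.9%) and 9 rose (17.0%, against 21.7%). Quantile normalization gave 11 that fell (20.8%, against 23.4%) and 9 that rose (17.0%, against 23.9%). The median of all genes was -0.54 as deposited, -0.69 with spike-in scaling and -0.02 with equal medians. A change on the deposited or the spike-in scale includes this shift, and one with equal medians does not. On the deposited scale the 3 *top1Δtop2ts* arrays all lay below the 3 wild-type arrays for 10 of the 53 genes (18.9%, against 28.7% of all genes), and for 0 genes above them (1.27% of all genes). With spike-in scaling 41 lay below (77.4%, against 69.8%) and 0 above (3.29%), and with equal medians 13 lay below (24.5%, against 27.8%) and 11 above (20.8%, against 24.7%).

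**Figure D1:**
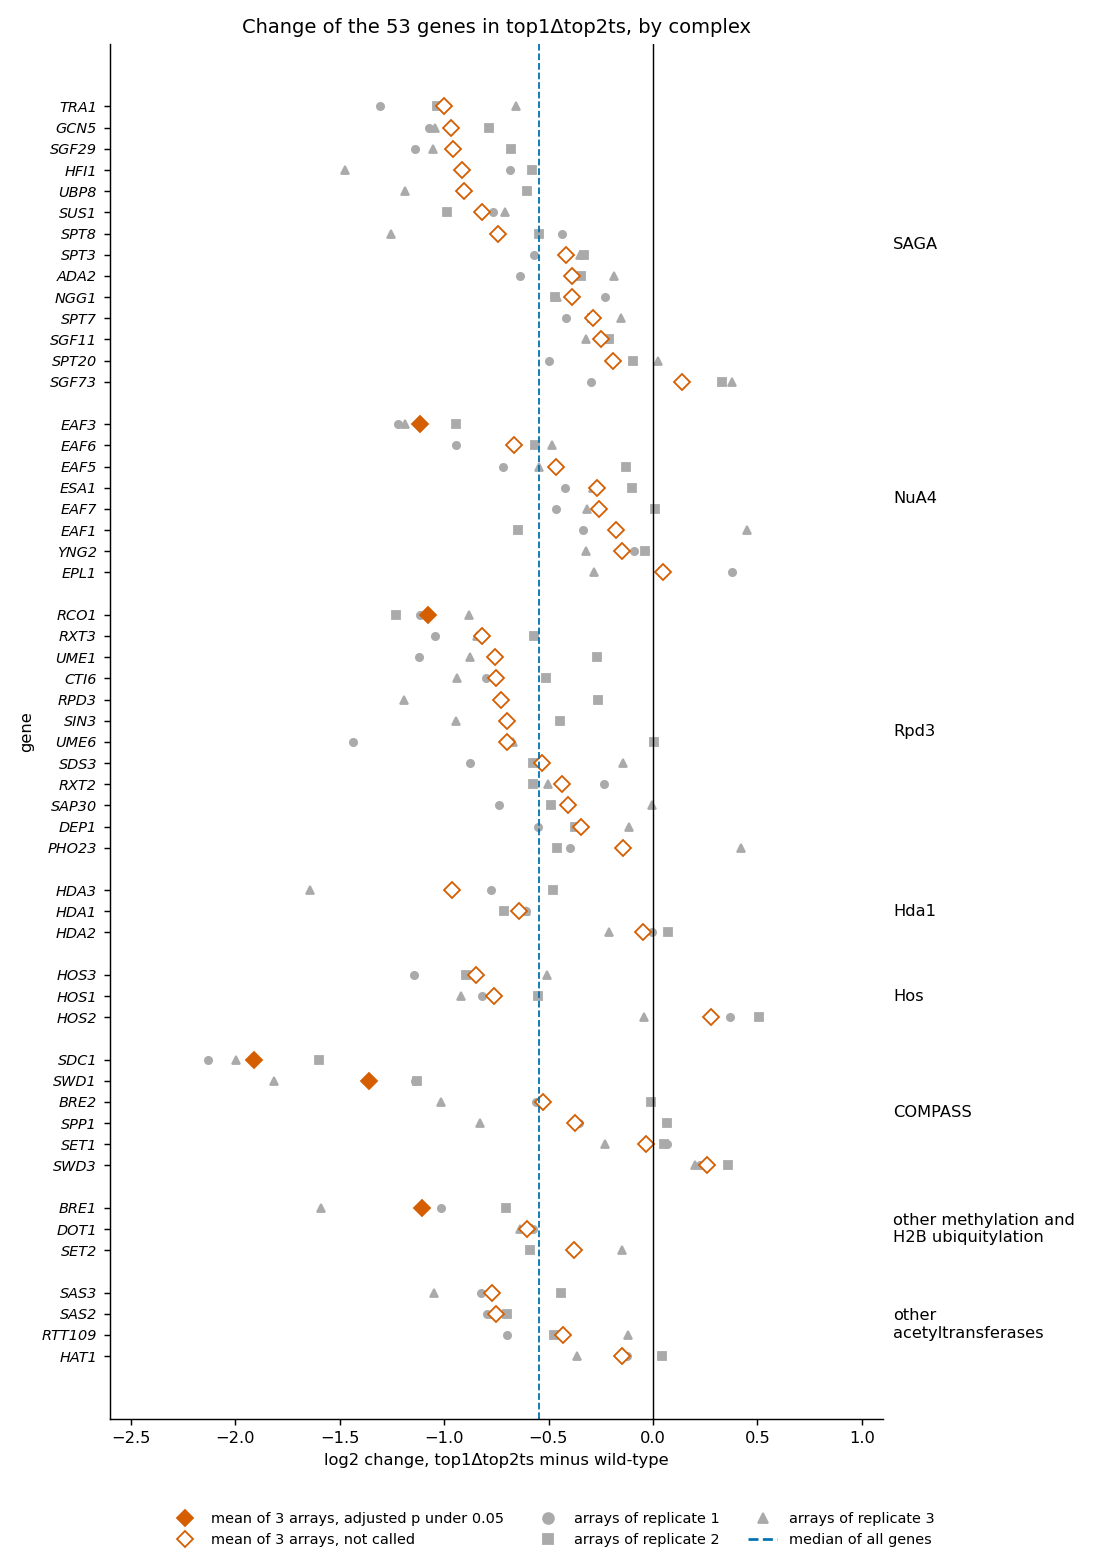
Log2 change of each of the 53 genes in *top1Δtop2ts* relative to wild-type, grouped by complex. Diamonds are the differences of the means of 3 arrays, filled where the adjusted p was under 0.05, small grey symbols are the differences between arrays of the same replicate number, and the dashed line is the median of all genes at -0.54. The 5 filled diamonds lie between -1.91 and -1.08, and *SGF73*, *EPL1*, *HOS2* and *SWD3* lie above 0.

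COMPASS held both the lowest value of the list and a gene near its upper end. *SDC1* (YDR469W, chromosome IV), whose product binds the Set1p module together with Bre2p, gave 425, 337 and 409 in *top1Δtop2ts*, 1213, 918 and 1376 in *top1Δ* and 1678, 918 and 1271 in *top2ts*, against 1859.5, 1021 and 1632 in wild-type. The highest *top1Δtop2ts* array stood below the lowest array of each of the other 3 strains. *SDC1* thus had 26.6% of the wild-type level, a log2 change of -1.91 (95% interval -2.68 to -1.14, adjusted p = 5.97e-05 from limma). *SWD1* (YAR003W, chromosome I), which encodes a WD-repeat subunit of the catalytic core, gave 333, 175 and 207 in *top1Δtop2ts*, 529, 567 and 735 in *top1Δ* and 820.2, 374 and 643 in *top2ts*, against 734, 383 and 728 in wild-type. Its 3 *top1Δtop2ts* arrays also lay below all 9 others. The change was -1.36 (-2.13 to -0.59, adjusted p = 0.00808), or 38.9% of wild-type.

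The other listed COMPASS genes did not pass the test. *SET1*, which encodes the methyltransferase itself, gave 1586, 736 and 1326 in *top1Δtop2ts*, against 1512, 708 and 1553 in wild-type. These 2 groups overlapped over most of their range, and the change was -0.03 (-0.80 to 0.73, adjusted p = 0.954). *SWD3*, another WD-repeat subunit of the core, gave 614, 370.0 and 524 in *top1Δtop2ts*, against 527, 289 and 457 in wild-type, and its change of 0.26 (-0.51 to 1.03, adjusted p = 0.634) was above 0 in all 3 same-numbered pairs, at 0.22, 0.36 and 0.20. It was the 1 member above 0 in all 3 pairs, against 7.63% of all genes. *BRE2* and *SPP1* lay between, at -0.53 and -0.37, and *BRE2* passed with the block (adjusted p = 0.045). With equal medians *SET1* and *SWD3* rose, by 0.49 and 0.78, while *SDC1* and *SWD1* still fell (-1.38 and -0.84). The median over the 6 listed genes was -0.45, and -0.20 over the 4 that remain without *SDC1* and *SWD1*. Among COMPASS genes outside the list, *SWD2* and *SHG1* were not called, at -0.86 and -0.30 (adjusted p = 0.105 and 0.584). With the block *SWD2* passed (adjusted p = 0.00036) and *SHG1* did not (0.151).

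**Figure D2:**
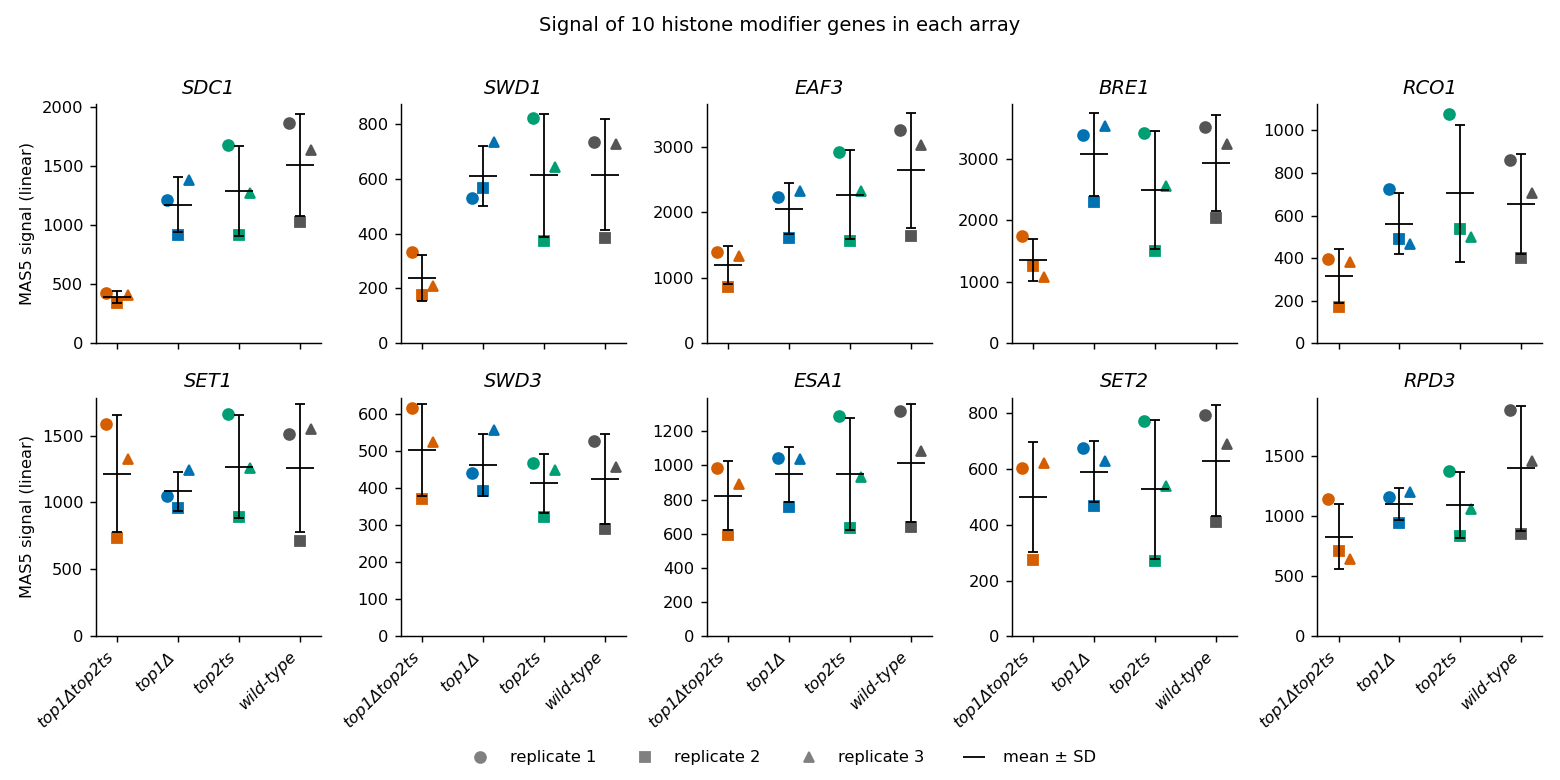
MAS5 signal of the 5 genes that fell in *top1Δtop2ts* (upper row) and of *SET1*, *SWD3*, *ESA1*, *SET2* and *RPD3* (lower row) in each of the 12 arrays, on a linear axis from 0. Symbols mark the replicate number, and bars give mean and SD of the 3 arrays of a strain. For *SDC1*, *SWD1*, *EAF3*, *BRE1* and *RCO1* the 3 *top1Δtop2ts* arrays lie below the 3 wild-type arrays, and for the genes of the lower row they overlap with them.

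*BRE1* (YDL074C, chromosome IV) had the lowest change of the remaining methylation and ubiquitylation genes. It gave 1738, 1250.4 and 1078 in *top1Δtop2ts*, 3387, 2293 and 3534 in *top1Δ* and 3423, 1501 and 2555 in *top2ts*, against 3517, 2037 and 3243 in wild-type. The *top1Δtop2ts* arrays did not overlap with those of *top1Δ* and wild-type, while the lowest *top2ts* array, 1501, lay among them. *BRE1* fell to 46.5% of wild-type (-1.10, -1.87 to -0.33, adjusted p = 0.0366). *DOT1*, which encodes the methyltransferase for a lysine in the core of histone H3, gave 627, 287 and 415 in *top1Δtop2ts*, against 934, 434 and 646 in wild-type. Its groups overlapped, but the 3 same-numbered pairs were close to each other at -0.58, -0.60 and -0.64. The change of -0.60 did not pass (adjusted p = 0.258, and 0.00553 with the block). *SET2*, whose enzyme travels with the elongating polymerase, gave 605, 272 and 622 in *top1Δtop2ts*, against 794, 409.5 and 689 in wild-type, with overlapping arrays and a change of -0.38 (adjusted p = 0.48, and 0.0712 with the block).

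In SAGA 0 of the 14 genes passed the test, where 15.1% of all genes fell and 1.25% rose. A change below 0 was seen in 13 of 14, against 85.7% of all genes, and the median was -0.58. With the block 10 of 14 fell, where 62.7% of all genes did. *TRA1*, the large subunit that contacts activators and is shared with NuA4, had the lowest change. It gave 1771, 1112 and 2266 in *top1Δtop2ts*, against 4375, 2276 and 3572 in wild-type. Every *top1Δtop2ts* array lay below every wild-type array, although the highest in *top1Δtop2ts*, 2266, nearly met the lowest in wild-type, 2276. Its change was -0.998 (-1.77 to -0.23, adjusted p = 0.0601, and 7.6e-05 with the block). *GCN5*, for the acetyltransferase, gave 382, 223 and 365 in *top1Δtop2ts*, against 804, 385 and 752 in wild-type. These arrays did not overlap either, with 382 as the highest value in *top1Δtop2ts* and 385 as the lowest in wild-type, and the change was -0.97 (-1.74 to -0.20, adjusted p = 0.0681, and 7.02e-05 with the block).

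The modules of SAGA covered much the same range. The catalytic module (*GCN5*, *ADA2*, *NGG1* and *SGF29*) ran from -0.97 to -0.39, with a median of -0.67. The 5 genes of the core and the part that binds the TATA-binding protein (*SPT3*, *SPT7*, *SPT8*, *SPT20* and *HFI1*) ran from -0.91 to -0.19, with a median of -0.42. The deubiquitinase module (*UBP8*, *SUS1*, *SGF11* and *SGF73*), which removes the ubiquitin of histone H2B, spread widest, from -0.90 for *UBP8* to 0.14 for *SGF73*. *SGF73*, the subunit that anchors this module, gave 952, 542 and 1056 in *top1Δtop2ts*, against 1168, 431 and 812 in wild-type, and the arrays overlapped. Its change of 0.14 (adjusted p = 0.809) was -0.01 with spike-in scaling and 0.66 with equal medians, where it was called (adjusted p = 0.00382).

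Among the listed genes of SAGA, NuA4 and Rpd3, those of NuA4 had the highest median, at -0.26, and 1 of the 8 fell (15.1% of all genes fell). *TRA1*, shared with NuA4, was counted under SAGA, at -0.998. Among NuA4 genes outside the list *ARP4* also fell (-1.34, adjusted p = 0.00887), while *SWC4* and *YAF9* were not called, at -0.59 and 0.07. *EAF3* (YPR023C, chromosome XVI) gave 1397, 852 and 1328 in *top1Δtop2ts*, 2239, 1604 and 2328 in *top1Δ* and 2919.6, 1564 and 2327 in *top2ts*, against 3256, 1637 and 3024 in wild-type. All 3 *top1Δtop2ts* arrays were below the 9 others. The change was -1.12 (-1.89 to -0.35, adjusted p = 0.0345), or 46.1% of wild-type, and the same-numbered pairs gave -1.22, -0.94 and -1.19. *ESA1*, for the catalytic subunit, gave 985, 594 and 889 in *top1Δtop2ts*, against 1318, 638 and 1085 in wild-type, with overlap between the strains and a change of -0.27 (adjusted p = 0.62). *EPL1*, whose product joins Esa1p to the nucleosome, gave 1920.2, 917 and 1042 in *top1Δtop2ts*, against 1479, 887 and 1266 in wild-type, and its change was 0.05 (adjusted p = 0.938). Its highest *top1Δtop2ts* array exceeded all wild-type arrays, while the other 2 lay among them. With spike-in scaling *EPL1* was at -0.10, and with equal medians *ESA1*, *EPL1* and *YNG2* rose while *EAF3* fell. With the block 3 of the 8 fell, *EAF3*, *EAF5* and *EAF6*, where 62.7% of all genes did.

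*EAF5*, a further NuA4 gene, was read by 4 probe sets, because the array carries 3 control probe sets along its transcript beside the regular one. On the regular probe set it gave 897, 604 and 849 in *top1Δtop2ts*, against 1478, 660.1 and 1238 in wild-type, a log2 change of -0.46 (adjusted p = 0.382, and 0.0177 with the block). The control sets at the 3′ end, the middle and the 5′ end gave changes of -0.61, -0.56 and -0.56. The 4 changes thus lay between -0.61 and -0.46. They were read on the same arrays, so the standard error of a change does not measure their agreement. The log2 ratio of the 5′ to the 3′ control set was -1.71 ± 0.39 in *top1Δtop2ts*, -1.71 ± 0.28 in *top1Δ* and -1.39 ± 0.08 in *top2ts*, against -1.77 ± 0.19 in wild-type. For the control sets of *ACT1* this ratio was lower in *top1Δtop2ts*, at -0.54 ± 0.09 against -0.32 ± 0.04 in wild-type. It was higher for *RIP1* (-0.07 ± 0.35 against -0.38 ± 0.21) and *SPT15* (-0.92 ± 0.15 against -1.16 ± 0.22). For *SRB4* and *WBP1* it was -2.92 ± 0.53 and -1.42 ± 0.03, against -2.97 ± 0.05 and -1.51 ± 0.15.

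**Figure D3:**
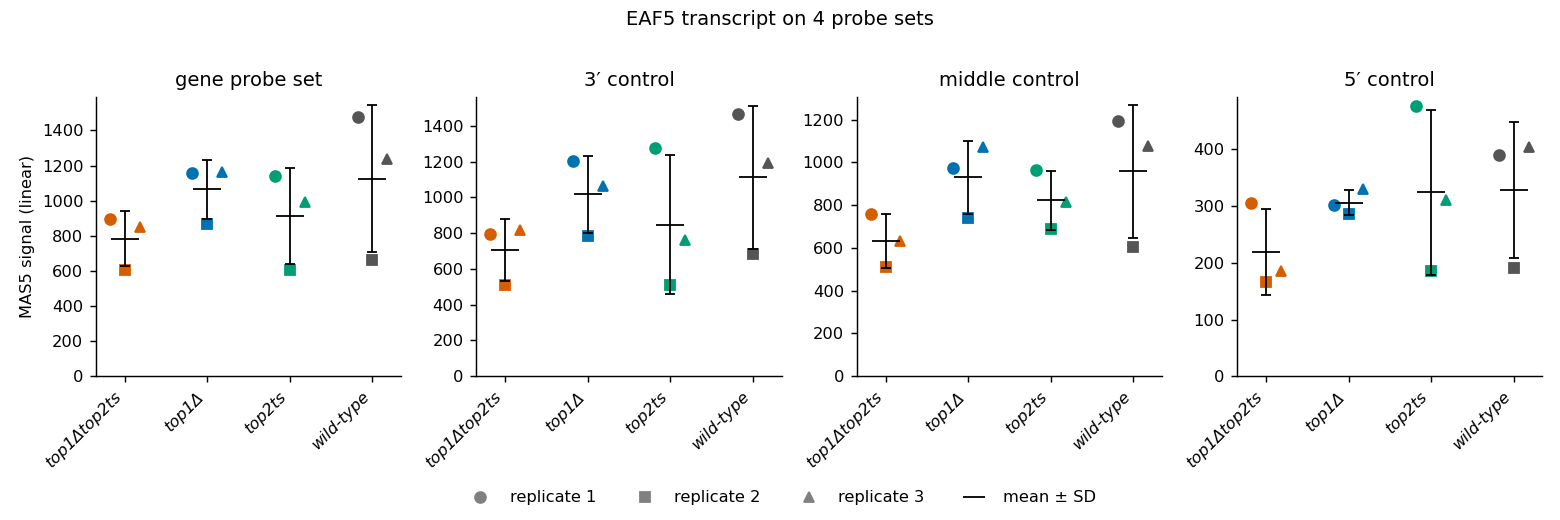
MAS5 signal of *EAF5* on its regular probe set and on the control probe sets at the 3′ end, the middle and the 5′ end of the transcript, in each of the 12 arrays. Each panel has its own linear axis from 0, symbols mark the replicate number, and bars give mean and SD of 3 arrays. The *top1Δtop2ts* mean is the lowest of the 4 strains on each probe set.

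Of the 4 further acetyltransferases 0 passed the test, where 15.1% of all genes fell and 1.25% rose. All 4 had a change below 0, as did 85.7% of all genes. *SAS3*, for the catalytic subunit of NuA3, gave 578, 348 and 405 in *top1Δtop2ts*, against 1022, 472 and 838 in wild-type. The 2 strains overlapped only through the wild-type array of replicate 2, and the change was -0.77 (adjusted p = 0.146, and 0.000476 with the block). *HAT1*, for the enzyme that acetylates newly made histone H4, gave 1112, 779 and 786 in *top1Δtop2ts*, against 1210.3, 755 and 1012 in wild-type. It overlapped throughout, with a change of -0.15 (adjusted p = 0.796). *SAS2* and *RTT109*, the acetyltransferase of the SAS complex and the one that acts on new histone H3, lay at -0.75 and -0.43, and *SAS2* passed with the block (adjusted p = 0.000434).

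The Rpd3 genes had the lowest median of these 3 groups, at -0.70, and all 12 were below 0, as were 85.7% of all genes. *EAF3*, shared with the small Rpd3 complex, was counted under NuA4 and fell, at -1.12 (adjusted p = 0.0345). Of the 12 counted here *RCO1* (YMR075W, chromosome XIII) was the 1 that fell, where 15.1% of all genes did. It gave 397, 169.7 and 384 in *top1Δtop2ts*, 725, 487 and 468 in *top1Δ* and 1077, 538 and 499 in *top2ts*, against 861, 399 and 707 in wild-type. The highest *top1Δtop2ts* array stood just under the lowest wild-type array, 397 against 399, and the change was -1.08 (-1.85 to -0.31, adjusted p = 0.042). *RPD3*, for the deacetylase, gave 1137, 708 and 637 in *top1Δtop2ts*, against 1882, 848 and 1453 in wild-type. These overlapped, and the change was -0.73 (adjusted p = 0.172, and 0.00258 with the block). The 3 genes of the core that both Rpd3 complexes share (*RPD3*, *SIN3* and *UME1*) lay close together, from -0.76 to -0.70, while the 8 genes of the large complex ran from -0.82 to -0.14. *PHO23*, a subunit of the large complex that binds methylated histone H3, was the highest of them, with 1026, 462 and 1393 in *top1Δtop2ts*, against 1352, 636 and 1039 in wild-type. Its same-numbered pairs went both ways, at -0.40, -0.46 and 0.42, for a change of -0.14 (adjusted p = 0.799). With the block 9 of the 12 genes fell, where 62.7% of all genes did, *PHO23*, *SAP30* and *DEP1* being the others. With equal medians 0 passed, where 22.9% of all genes fell and 21.7% rose.

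The 3 Hda1 genes ran from -0.96 to -0.05, and 0 passed the test, where 15.1% of all genes fell and 1.25% rose. *HDA1*, for the deacetylase, gave 704, 442 and 587 in *top1Δtop2ts*, against 1071, 724 and 895 in wild-type. The strains did not overlap, and the pairs were even at -0.61, -0.71 and -0.61, for a change of -0.64 (adjusted p = 0.226, and 0.00338 with the block). *HDA3*, for one of the 2 scaffold subunits, gave 325, 173 and 125 in *top1Δtop2ts*, against 555, 241 and 389.5 in wild-type, overlapping through replicate 1 of the mutant, and changed by -0.96 (adjusted p = 0.0689, and 0.000893 with the block). *HDA2*, for the other scaffold subunit, gave 1248, 628 and 974 in *top1Δtop2ts*, against 1252, 596 and 1127 in wild-type, a change of -0.05 (adjusted p = 0.939) that lies in the middle of a full overlap.

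The 3 Hos deacetylases held the highest change of the list. *HOS2*, whose enzyme works in the Set3 complex on active genes, gave 255, 134 and 138 in *top1Δtop2ts*, 108, 113 and 111 in *top1Δ* and 248, 160.2 and 202 in *top2ts*, against 198, 94.4 and 142 in wild-type. The *top1Δtop2ts* arrays overlapped with those of wild-type, and the change of 0.28 (-0.49 to 1.05, adjusted p = 0.609) was called only with equal medians and quantile normalization among the alternatives, at 0.80 with the first. *HOS3* gave 527, 308 and 675 in *top1Δtop2ts*, against 1164, 572 and 959.6 in wild-type. They overlapped through the wild-type array of replicate 2, and the change was -0.85 (adjusted p = 0.11, and 0.000881 with the block). *HOS1* lay at -0.76 and passed with the block (adjusted p = 0.000514).

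Genes of the same complex were also set against each other within the same arrays, where the brightness of the array as a whole drops out. The genes were chosen for their changes, so these values are a description and were not tested. Relative to *SET1*, the log2 change of *SDC1* between *top1Δtop2ts* and wild-type was -2.20, -1.65 and -1.77 in the 3 same-numbered pairs, a mean of -1.87 ± 0.29 (SD, n = 3), or 3.66-fold lower. That of *SWD1* relative to *SET1* was -1.21, -1.18 and -1.59, with a mean of -1.33 ± 0.23. The same differences were -0.20 ± 0.34 and 0.17 ± 0.14 in *top1Δ*, and -0.27 ± 0.21 and -0.07 ± 0.26 in *top2ts*. *SDC1* and *SWD1* were picked for their low changes, so the size of these gaps follows in part from that choice. *BRE2* and *SPP1* relative to *SET1* gave smaller means in *top1Δtop2ts*, -0.49 ± 0.38 and -0.34 ± 0.32. *EAF3* relative to *ESA1* gave -0.80, -0.84 and -0.90, the most even of these differences, against a mean of -0.27 ± 0.06 in *top1Δ* and -0.11 ± 0.06 in *top2ts*. *GCN5* relative to *SGF73* gave -0.78, -1.12 and -1.42, and *HDA3* relative to *HDA2* gave -0.77, -0.55 and -1.43. *RCO1* relative to *RPD3* gave -0.39, -0.97 and 0.31, which changes sign between pairs. Pairs of the Hos genes were also uneven, with -1.51, -1.40 and -0.46 for *HOS3* relative to *HOS2*.

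**Figure D4:**
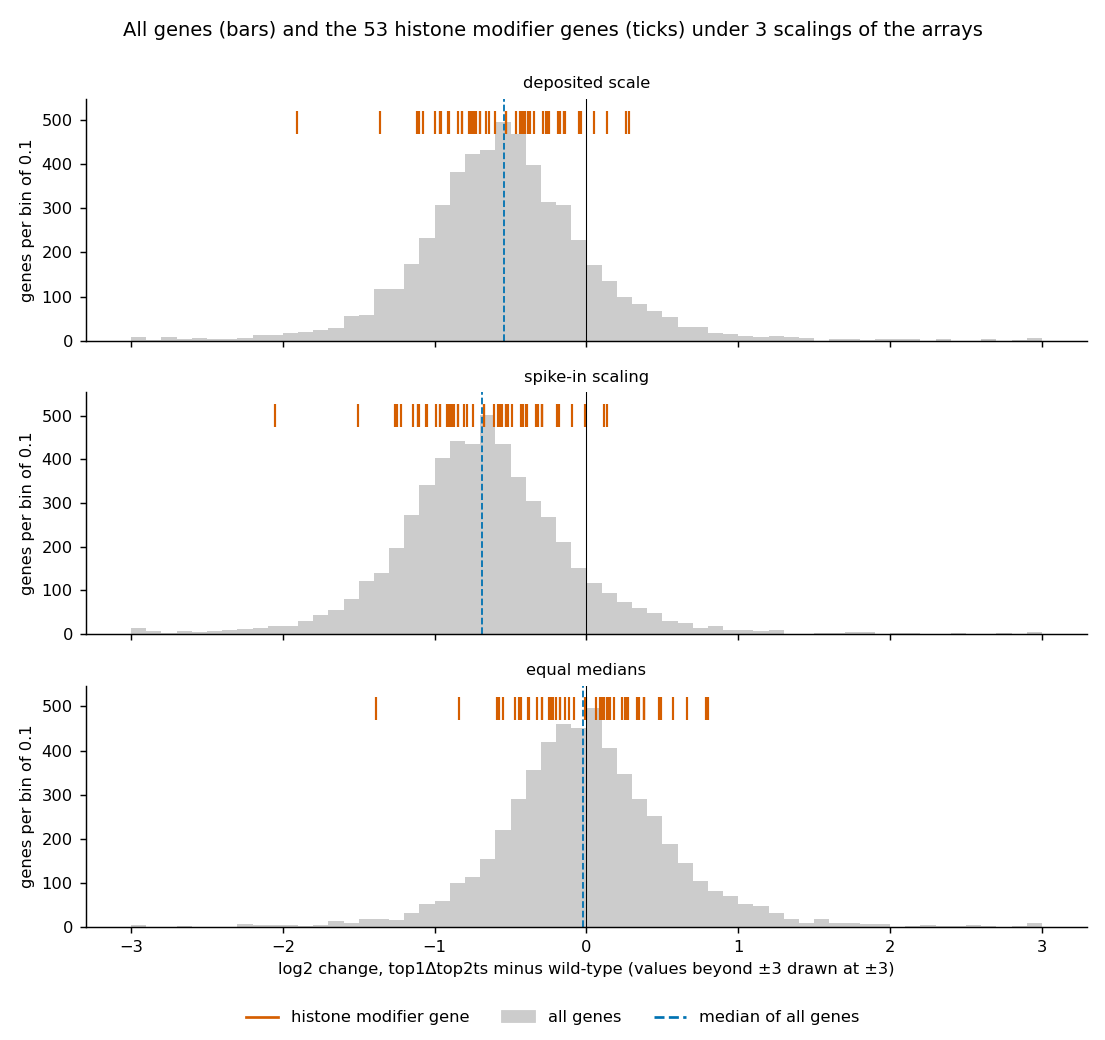
Distribution of the log2 change between *top1Δtop2ts* and wild-type over all 5449 genes (grey bars, genes per bin of 0.1, with changes beyond 3 in either direction in the end bins) with the 53 histone modifier genes as ticks, on the deposited scale, with spike-in scaling and with equal medians. The dashed line marks the median of all genes, at -0.54, -0.69 and -0.02. The ticks move with the distribution, and *SDC1* is the lowest tick in each panel.

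The single mutants were compared with wild-type to see what the loss of each enzyme alone does. In *top1Δ* 0 of the 53 genes passed the test, against 0.936% of all genes that fell and 0.0551% that rose, and 0 had an unadjusted p under 0.05, against 6.15% of all genes. Their median change was -0.20, against -0.17 for all genes, and the changes ran from -0.76 to 0.15. With the block 2 genes fell, against 12.4% of all genes (0.569% rose), and both are singled out here after their values were seen. Of the 53 genes 1 fell with spike-in scaling (6.44% of all genes fell and 0.147% rose), 2 with scaling and block (13.8% and 0.496%), 2 with equal medians (6.35% and 3.03%) and 1 with quantile normalization (4.92% and 3.30%), and 0 rose. *RXT3*, for a subunit of the large Rpd3 complex, gave 1087, 589 and 965 in *top1Δ*, against 2002, 898 and 1656 in wild-type, overlapping through replicate 2 of wild-type, a change of -0.76 (adjusted p = 0.838, and 0.00292 with the block). In *top1Δtop2ts* it gave 972, 605 and 922 and in *top2ts* 1951, 940.5 and 1445, so its level in *top1Δ* was close to that in the double mutant, at -0.82. *ADA2*, for the SAGA subunit that activates Gcn5p, gave 329, 249.7 and 329 in *top1Δ*, against 588, 311 and 475 in wild-type, overlapping through 1 wild-type array, with a change of -0.56 (adjusted p = 1, and 0.0258 with the block). The change of *ADA2* in *top1Δtop2ts* was -0.39.

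In *top2ts* 0 of the 53 genes passed, against 0.532% of all genes that fell and 0.330% that rose, and 0 had an unadjusted p under 0.05, against 4.40% of all genes. Their median change was -0.20, against -0.22 for all genes. The range ran from -0.62 for *TRA1* to 0.53 for *HOS2*. With the block 2 genes fell, against 9.08% of all genes (1.12% rose). Of the 53 genes 0 passed with spike-in scaling (2.62% of all genes fell and 0.587% rose), 2 fell with scaling and block (8.20% and 1.08%), 1 rose with equal medians (2.77% and 3.34%) and 0 passed with quantile normalization (3.43% and 3.29%). *TRA1* gave 3033, 1293 and 2519 in *top2ts*, against 4375, 2276 and 3572 in wild-type, and was lower in each pair, at -0.53, -0.82 and -0.50 (adjusted p = 0.995, and 0.0266 with the block). *SPT20*, a SAGA core subunit singled out after its values were seen, gave 572, 292 and 460.3 in *top2ts*, against 864, 414 and 659.6 in wild-type, a change of -0.54 (adjusted p = 0.995, and 0.0412 with the block). *HOS2* was higher in each pair, at 0.33, 0.76 and 0.51, and passed with equal medians alone among the alternatives run for this comparison (adjusted p = 0.0388). It is the 1 member above 0 in all 3 pairs, against 6.75% of all genes.

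**Figure D5:**
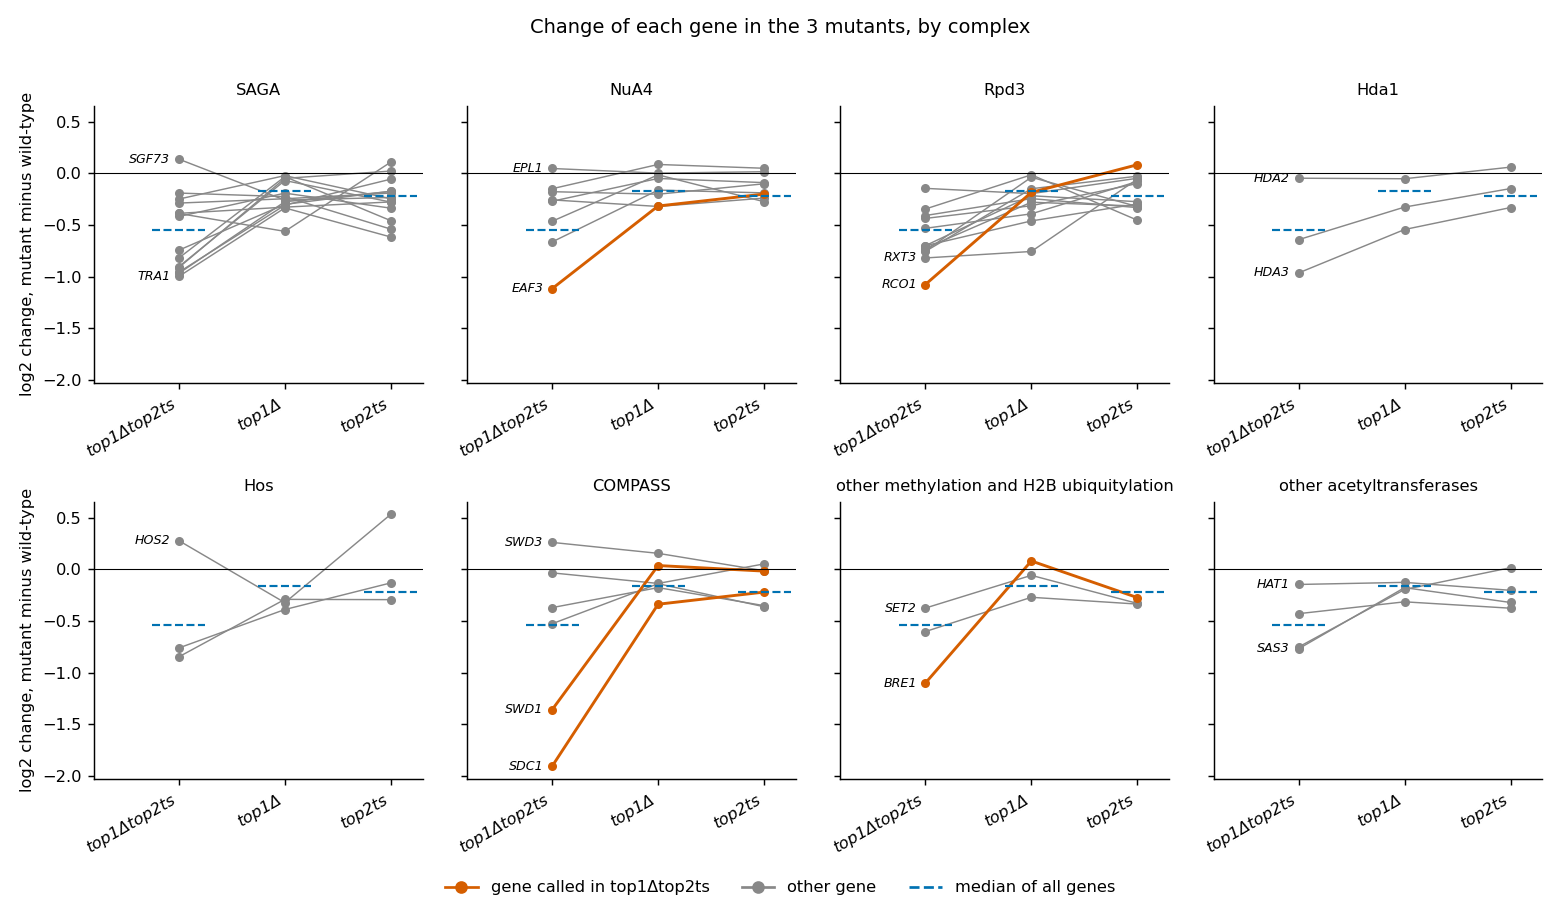
Log2 change relative to wild-type of each of the 53 genes in *top1Δtop2ts*, *top1Δ* and *top2ts*, in a panel per complex. Lines join the values of a gene, orange where it was called in *top1Δtop2ts*, and dashed segments give the median of all genes in each mutant. The 3 mutants share the wild-type arrays. In the single mutants the 5 orange genes lie between -0.34 and 0.08.

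For the 5 genes that fell in *top1Δtop2ts* the single mutants gave changes between -0.34 and 0.08 in *top1Δ* and between -0.27 and 0.08 in *top2ts*. Whether the double mutant departs from the sum of the single ones was tested in the same fit, where this departure had a standard error of 0.55. On the deposited scale 0 of the 53 genes passed, against 1.65% of all genes above the sum and 0.679% below it. At an unadjusted p under 0.05 there were 2 (8.99% of all genes), *SWD1* with a departure of -1.38 (adjusted p = 0.257) and *SDC1* with -1.35 (0.284). With the block 5 genes lay below the sum, against 14.0% of all genes, and 0 above it (9.21%). They were *SDC1* (adjusted p = 0.000432), *SWD1* (0.00316), *BRE1* (-0.91, 0.0197), *RCO1* (-0.98, 0.027) and *HFI1* (-0.89, 0.027), a SAGA core gene singled out after its values were seen. With spike-in scaling *SWD1* and *SDC1* lay below the sum, against 6.09% of all genes, and 0 above it (4.53%). With scaling and block together 8 lay below (20.2% of all genes) and 0 above (7.96%), with equal medians 9 below (15.9%) and 2 above (14.4%), and with quantile normalization 9 below (14.6%) and 2 above (14.4%). *TRA1*, *DOT1* and *SET1* stood near the sum of the single mutants, with departures of -0.05, 0.00 and 0.05 (standard error 0.55 each).

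Across the 53 genes the change in *top1Δtop2ts* had a Pearson correlation of -0.31 and a Spearman correlation of -0.16 with the log2 wild-type signal, which shares the wild-type arrays with the change. Over all 5449 genes these were -0.33 and -0.32. With the coding length on a log scale the correlation of the 53 genes was 0.05 and 0.02, and -0.09 and -0.07 over all genes. The genes were of moderate signal, with a median of 801 in wild-type against 1218 for all genes. Their coding lengths, from the gene models of assembly R64, ran from 300 nucleotides in *SGF11* to 11235 in *TRA1*, with a median of 1359 against 1236. They lie on 15 of the 16 chromosomes. Of the genes next to the 5 that fell, *TLG1* beside *SDC1* and *ERP1* beside *SWD1* also fell, with changes of -1.39 (adjusted p = 0.00688) and -1.43 (0.00484). Of all genes 15.1% fell. Neighbours on the other sides, *UGO1* and *RFA1*, had changes of 0.11 and -0.36 and were not called, with or without the block. The measured neighbours of *EAF3*, *BRE1* and *RCO1* lay between -0.78 and -0.27 and were not called on the deposited scale. Those of *EAF3* and *BRE1* passed with the block, where 62.7% of all genes fell.

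A further 40 genes for subunits and enzymes of histone modification outside the 53 were all measured. In *top1Δtop2ts* 5 of the 40 fell (15.1% of all genes) and 0 rose (1.25%), with a median of -0.52, against -0.54 for all genes, and 25 of the 40 fell with the block (62.7% of all genes). *ASH1*, for a repressor that recruits the Rpd3 complex in daughter cells, gave 1049, 714 and 1054 in *top1Δtop2ts*, against 6380.3, 4256 and 5425 in wild-type, far apart in every pair, with a change of -2.51 (adjusted p = 2.14e-08). *SIR2*, for the deacetylase of silent chromatin, gave 348, 233 and 454 in *top1Δtop2ts*, against 1496, 805 and 1371 in wild-type, and changed by -1.83 (adjusted p = 0.000137). *ARP4*, for an actin-related subunit of NuA4, and *VPS75*, for a histone chaperone that works with Rtt109p, followed at -1.34 (adjusted p = 0.00887) and -1.33 (0.00985). In *top1Δ* 1 of the 40 fell (0.936% of all genes), *ASH1* again, with 2134, 1564 and 2329 and a change of -1.41 (adjusted p = 0.0361), and with the block 5 fell (12.4% of all genes). In *top2ts* 0 passed, and 3 fell with the block (9.08% of all genes). From the sum of the single mutants 0 departed, and with the block 8 lay below it (14.0% of all genes) and 2 above it (9.21%).

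The labelled state of the cells was read from marker genes. All 6 a-cell genes were bright, with summed signals of 35591 to 63149 in *top1Δtop2ts*, 42698 to 58021 in *top1Δ* and 37484 to 71110 in *top2ts*, against 50432 to 60641 in wild-type, and none was at or below the Tag controls. The 4 genes of α cells, which should be absent, summed to 1164 to 1674 in *top1Δtop2ts*, 672 to 942 in *top1Δ* and 967 to 1452 in *top2ts*, against 765 to 1396 in wild-type. Of these 1 was at or below the Tag controls in *top1Δ* and 0 in the other strains. The brightest averaged 1168 in *top1Δtop2ts*, 729 in *top1Δ* and 893 in *top2ts*, against 904.5 in wild-type. The median over 6 pheromone response genes was 6595 in *top1Δtop2ts*, 5343 in *top1Δ* and 9596.5 in *top2ts*, against 5674 in wild-type. Genes of G2 and M phase (*CLB1*, *CLB2*, *CDC20*, *CDC5* and *SWI5*), which should be low in a G1 arrest, differed between strains. Their summed signal over 5 genes was 794 to 1324 in *top1Δtop2ts*, 1707 to 2873 in *top1Δ* and 1381 to 4139 in *top2ts*, against 2343 to 5498 in wild-type. The *top1Δtop2ts* arrays lay below all wild-type arrays, and whether this has a part in the changes of the histone modifier genes was not tested.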

How the data were processed

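RNA of 12 yeast cultures (4 strains, 3 biological replicates each) was read on Affymetrix Yeast Genome 2.0 arrays. The authors added poly-A spike-in RNA to an equal number of cells before extraction, labelled 2 µg of total RNA and deposited MAS5 signals, a linear intensity per probe set. Whether these values precede or follow the study's spike-in normalization is not given in the sources used here. The spike-ins differed between replicates in them, and scaling to the 36 probe sets for dap, lys, phe and thr was an alternative. No probe-level values were used here, and the number of arrays limits the precision.

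Of 10928 probe sets, 5028 were 0 on all arrays, 1 named several genes and was left out, and 5498 named 1 gene. Signals were set to at least 0.1 (4 values) and taken to log2, and probe sets of a gene were averaged, for 5449 genes. Correlations between arrays were 0.904 to 0.992, and 0 pairs were identical. limma 3.58.1 (R 4.3.3) fitted the 12 arrays with strain as the factor, two-sided, with Benjamini-Hochberg adjustment over all genes. The departure from additivity is the double mutant's change minus the sum of the changes in the single mutants. Tables were handled in Python 3.11.15, and the code was tested on simulated data. Names, neighbours and coding lengths came from the RefSeq annotation of assembly R64.

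The study describes independent experiments for the strains together, and replicate numbers were taken to mark them. Same-numbered arrays deviated together (r above 0.1) in 10 of 18 pairs but in only 4 of the 9 with a wild-type array and in 0 of the 3 of *top1Δtop2ts* with wild-type, and 10 of 12 arrays correlated best with one of their own number. The pairing was taken from the study's description. The r values leave out the level shared by all genes of an array, and the 4 arrays of replicate 2 shared a low spike-in level (9.88 to 10.01). The genes, lists and tests were chosen with earlier results of these data known. Values per array are given for members that passed the test, for the lowest and highest member of each group, for *GCN5*, *ESA1*, *RPD3*, *HDA1*, *SET1*, *SET2*, *DOT1* and *TRA1*. *EAF5* was added for its control probe sets and *RXT3*, *ADA2* and *SPT20* after their values were seen.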

Additional observations from a re-analysis of the deposited data

Results flagged for a closer look

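The control probe sets of *EAF5* are not used in any comparison of genes but carried signal well above the Tag controls, whose 95th percentile was 18.4. Over the 12 arrays the set at the 3′ end averaged 921, the set in the middle 835 and the set at the 5′ end 295. On the 3′ set the signals were 795, 509 and 820 in *top1Δtop2ts*, against 1466, 681 and 1191 in wild-type.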

How the results depend on the processing

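The alternatives were equal medians, quantile normalization, spike-in scaling, the replicate number as a block, a higher floor, a filter on dim probe sets, the brightest probe set per gene, an intensity trend, only the arrays compared and each array left out. Chosen after seeing the data were spike-in scaling with the replicate block and leaving out all arrays of replicate 2. In *top1Δtop2ts* the 5 calls became 33 with the replicate block, 32 with spike-in scaling, 41 with both, 16 with equal medians, 20 with quantile normalization and 27 without replicate 2, and with 1 array left out 1 to 23. In *top1Δ* the 0 calls became 2 with the block, 1 with spike-in scaling, 2 with both, 2 with equal medians, 1 with quantile normalization and 2 without replicate 2, and 0 to 0 with 1 array left out. In *top2ts* the 0 calls became 2 with the block, 2 with block and spike-ins and 1 with equal medians, and 0 to 0 with 1 array left out. For the departure from additivity the 0 calls became 5 with the block, 2 with spike-in scaling, 8 with both, 11 with equal medians, 11 with quantile normalization and 3 without replicate 2, and 0 to 1 with 1 array left out (1 without replicate 2 of *top2ts*).

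The median change in *top1Δtop2ts*, -0.53, was -0.0073 with equal medians, -0.074 with quantile normalization and -0.68 with spike-in scaling, and ran from -0.83 to -0.33 with 1 array left out. That in *top1Δ*, -0.20, ran from -0.51 to 0.028 with 1 array left out. That in *top2ts*, -0.20, was 0.035 with equal medians and 0.023 with quantile normalization, and ran from -0.51 to 0.10 with 1 array left out. Equal medians and quantile normalization remove a shared shift by construction, and the cause of the other differences was not tested.

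Over 23 named genes and 23 alternatives, 413 of 529 values kept direction and side of the threshold, 25 lost the call, 59 gained one and 32 changed sign. With equal medians *SET2* was at 0.15, *ESA1* at 0.25, *HAT1* at 0.38, *PHO23* at 0.38, *HDA2* at 0.48 and *SET1* at 0.49, and with quantile normalization at 0.13, 0.24, 0.38, 0.38, 0.48 and 0.52. Without replicate 2 *PHO23* was at 0.013. With spike-in scaling, with or without the block, *EPL1* was at -0.10 and *SGF73* at -0.0071. With 1 array left out, 15 values in 8 genes changed sign, and the changes ran from -0.66 to 0.014 for *SET2*, -0.33 to 0.0093 for *HAT1*, -0.48 to 0.31 for *PHO23*, -0.38 to 0.22 for *HDA2*, -0.41 to 0.29 for *SET1*, -0.28 to 0.26 for *EPL1*, -0.25 to 0.47 for *SGF73* and -0.025 to 0.53 for *HOS2*. *SDC1* was called in all 23 alternatives (adjusted p 6.44e-09 to 0.00357), *SWD1* in 20 (up to 0.0987), *EAF3* in 16, *BRE1* in 16 and *RCO1* in 15.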
